A study of Mus musculus with 4 samples.

Results

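The integrin and laminin chains are the cell surface receptors for extracellular matrix and the trimeric proteins of the basement membrane that many of them bind. They were taken by name: every array probe annotated as an integrin alpha or beta chain, a laminin alpha, beta or gamma chain, or a nidogen. This gave 39 genes with 55 probes, out of 55681 probes on the array. A gene counted as measured when both arrays of 1 group or the other showed it well above background. This held for 30 of the 39 genes, and 9 had no such probe. RNA came from NIH3T3, a mouse embryo fibroblast line that grows without limit. The cells expressed EGFR, the receptor for epidermal growth factor, as the wild-type protein or as a deletion mutant. Both groups were at steady state without treatment, and each had 2 arrays. The labels do not give the extent of the deletion, the species or promoter of the receptor, or whether the cells are a clone or a pool. The design text reports independent experiments for the cDNA step and names no separate cultures, so p-values cover the spread between arrays alone, and this may be technical.

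Between 23868 and 26110 probes per array (42.9% to 46.9%) were well above background. No spot was saturated. All 4 arrays lay on 1 slide and each group filled its own column, so effects of column and of group cannot be told apart. Of 14 fibroblast markers, 13 were well above background on all arrays, and Fap was not on any. Their summed signal lay between 605500 and 622400 units on the wild-type arrays and between 459500 and 473400 on the deletion-mutant arrays, and the part of this difference in the results was not tested. These are bulk samples, in which fewer cells of a kind and less RNA per cell cannot be told apart.

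An integrin is a dimer of 1 alpha and 1 beta chain. The alpha chain largely sets the ligand: a small set binds collagen, another binds laminin, and others recognise the RGD tripeptide of fibronectin and vitronectin. Most alpha chains pair with the beta chain Itgb1, whereas the chains Itgb2 and Itgb7 are known from leukocytes. Laminins are trimers of an alpha, a beta and a gamma chain, and nidogens link the laminin network to that of type IV collagen. In fibroblasts, collagen and fibronectin receptors anchor the cell in connective tissue, while laminin chains and nidogens are secreted.

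Probes are shown by the first 30 of their 60 bases, read 5′ to 3′ as the array files give them. Itga11, Lama2, Nid2 and Itgb7 are shown for the size of their change, Lama4 as the other laminin alpha chain that fell, and Itga2 for a stretch that integrin alpha chains share.
Itga11 (chr9:62631667-62631726): gtttcatctgaacaatgtcatctgttcccc
Lama2 (chr10:26701380-26701439): cctgaccaccaacattaggttccgaggctg
Nid2 (chr14:20630490-20630549): acagtggaaaaggaattggccattatgagt
Lama4 (chr10:38825794-38825853): ttggatgtagactcagaagtgaaccatgta
Itgb7 (chr15:102046450-102046509): atttttcagagtgaccttcagagggcagca
Itga2 (chr13:115626714-115626773): ctcGGCTTCTTCAAAAGAcaatataagaaa
Coordinates are those of mm9 in the array files. The probes of Itga11, Nid2 and Lama4 lie on the plus strand and those of Lama2, Itgb7 and Itga2 on the minus strand. The capitals in the Itga2 probe mark codons for glycine, a pair of phenylalanines, lysine and arginine, found next to the membrane in integrin alpha tails. Of 27 probes for alpha chains, only this 1 holds codons for it. Of the 55 probes, 8 have coordinates that span more than their own length, as a probe across a splice junction does. Exon, intron or untranslated position was not analysed here.

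The comparison asked how these receptors and matrix proteins differ between deletion-mutant and wild-type cells. The integrin chains grouped as laminin-binding (Itga3, Itga6, Itga7 and Itgb4) were all higher in deletion-mutant cells. The collagen-binding chain Itga11, the laminin chains Lama2, Lama4 and Lamb2 and the nidogen Nid2 were lower. The beta chains Itgb7 and Itgb2 rose, and no leukocyte alpha chain passed as higher. Signals are given in scaled intensity units, the processed signal after each array was set to a common 75th percentile of 347.3 units. They compare arrays for 1 probe, and not 1 gene with another. A log2 fold change is the deletion-mutant minus the wild-type mean, tested with limma, and p-values were adjusted (Benjamini-Hochberg) over the 18093 features tested.

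Of the 30 measured genes, 21 passed an adjusted p of 0.05, 12 higher and 9 lower in deletion-mutant cells. Over all features 58.8% passed, 34.6% higher and 24.2% lower, so passing is common on these arrays. The fitted change was at least 2-fold for 16 of the 30 genes, 10 of them higher and 6 lower, against 13.4% of all features, 5.94% higher and 7.46% lower. Itga2 is among the 16 by its fitted value alone: it was above background only in deletion-mutant cells, through which it entered the fit, and a 2-fold change is not shown for it. The median log2 fold change was 0.075 over the 30 genes and 0.066 over all features. Among the 20 measured integrin chains 9 rose and 5 fell, and among the 10 measured laminin chains and nidogens 3 rose and 4 fell. The groups did not overlap for 26 of the 30 genes, against 81.6% of all features.

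**Figure D1:**
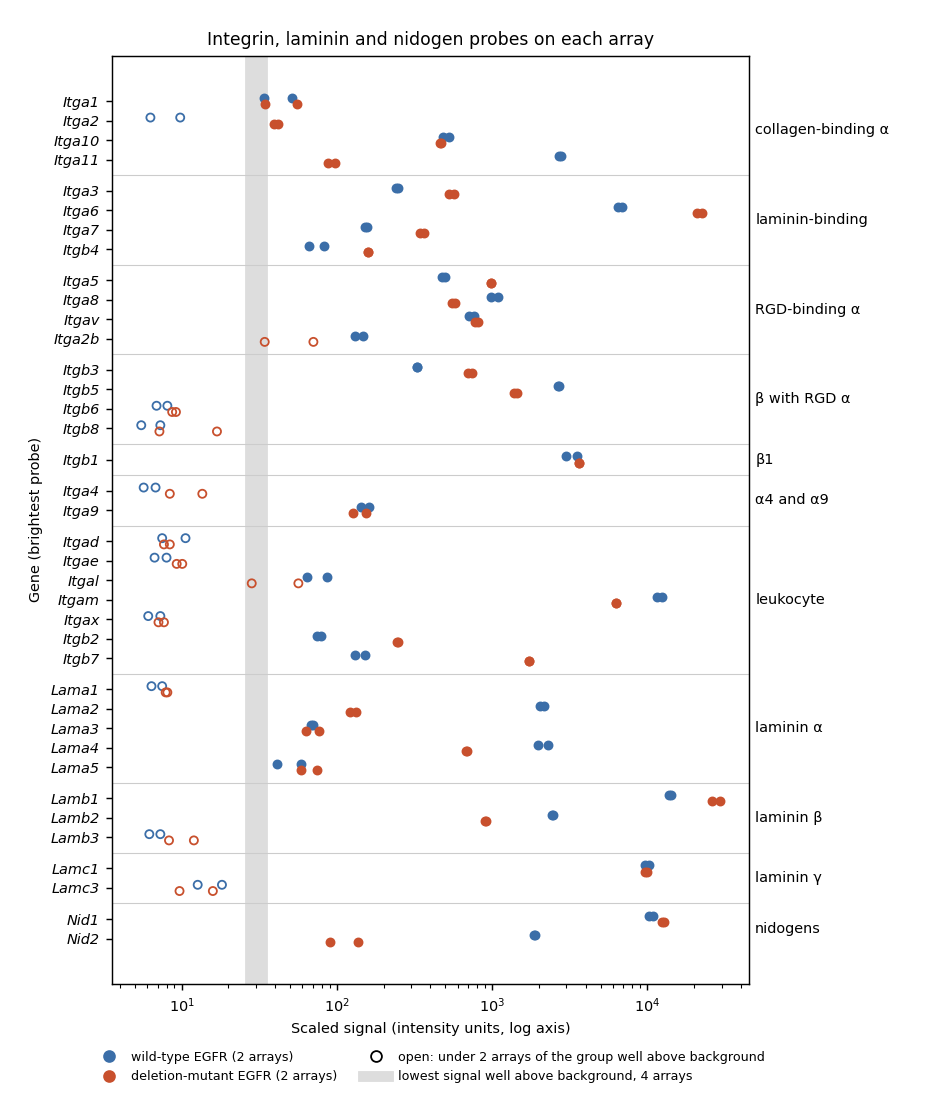
Scaled signal (intensity units, log axis) of the brightest probe of each of 38 genes, with 1 point per array in blue for the wild-type and in red for the deletion-mutant group. Open points mark a group in which fewer than 2 arrays were well above background, and the grey band spans the lowest signal well above background on the 4 arrays. Itga11, Lama2 and Nid2 lie far to the left in deletion-mutant cells and Itgb7 far to the right, and Itga2 crosses the band.

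Collagen-binding chains went separate ways. Itga11, a fibroblast receptor for fibrillar collagen, had 2754 and 2674 units on the wild-type arrays and 96.8 and 87.5 on the deletion-mutant arrays. All of these signals were well above background, and the groups lay far apart. It fell by 4.88 (log2, SE 0.075, limma adjusted p = 0.000146). Itga2, the collagen receptor chain of platelets and epithelia, was not well above background on either wild-type array, at 9.8 and 6.3 units. On the deletion-mutant arrays it had 42 and 39.4 units, which is just above the lowest detectable signal of 30.4 and 35.3 units there. Itga2 was at least 1.42-fold higher. The limma adjusted p of 0.00212 belongs to the fitted difference, which uses the wild-type signals below background, and does not test this bound. Its neighbour Itga1, whose probe lies 130 kb away on chromosome 13 and which also binds collagen, had 51.3 and 33.9 units in wild-type and 34.3 and 55 in deletion-mutant cells. These values overlap, and the 95% interval of the Itga1 difference, -0.81 to 0.93 (log2), leaves room for a change of almost 2-fold either way. Itga10, the collagen receptor chain of cartilage, had 524.4 and 479.4 units against 459.3 and 470.5, with an interval of -0.30 to 0.085, and did not pass (adjusted p = 0.252). It passed as lower with the 75th percentile of the detected probes (-0.30, adjusted p = 0.0289). A second Itga10 probe had 462 and 460.7 units against 472.4 and 455.1, which overlap. It did not pass (0.007, limma adjusted p = 0.928 with every probe as a feature).

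All 4 chains grouped here as laminin-binding (Itga3, Itga6, Itga7 and Itgb4) rose, by 2.14-fold to 3.28-fold. Over all features 34.6% passed as higher, and 5.94% did so with a change of at least 2-fold. Itgb1, the beta chain that most alpha chains share, was grouped apart and did not pass. Itga6, the laminin receptor chain of epithelia and stem cells, had 6413 and 6809 units in wild-type and 20880 and 22542 in deletion-mutant cells. It rose 3.28-fold (log2 1.71, SE 0.073, limma adjusted p = 0.00044). Itga7, the laminin receptor chain of muscle, had 155.5 and 151 units against 340.5 and 364, which is 2.30-fold higher (adjusted p = 0.000665). Itga3, which binds epithelial laminins, had 247.9 and 241.7 units against 567.1 and 525.2, which is 2.23-fold higher (adjusted p = 0.000759). In each of these 3 genes both deletion-mutant arrays lay above both wild-type arrays, as they did for 8386 of the 18093 features. Itgb4, the partner of Itga6 in the hemidesmosomes of epithelia, had 66.5 and 82.2 units against 158 and 158.3 and was 2.14-fold higher (adjusted p = 0.00278). Their direction and their passing held under the median, quantile, detected-probe and normexp settings and with the authors' values. The size did not hold as well: only Itga6 reached 2-fold with normexp, only Itga6 and Itga7 with the percentile of the detected probes, and Itgb4 stayed under it without wild-type replicate 1. Of 11 epithelial markers, 6 were not well above background on any array, Cdh1 and Epcam among them. Their summed signal was 246.6 to 279.1 units on the wild-type and 342.7 to 371.4 on the deletion-mutant arrays. Of the 4 measured markers 75% passed, against 58.8% of all features. Krt8 (at least 2.79-fold) and Cldn7 (1.43-fold) were higher, Krt14 was 1.33-fold lower, and Esrp1 did not pass. Krt8 alone had 28.7 and 14.3 units against 86.5 and 81.6. The part of this summed signal in these results was not tested.

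Itga6 was measured by a pair of probes that differed in the size of the change. Both are shown here by their first 30 bases.
Itga6, brighter probe (chr2:71694756-71694815): gagaatgagaacctgggaggtcttgttgtt
Itga6, other probe (chr2:71690633-71690692): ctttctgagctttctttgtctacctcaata
The first stands for a RefSeq transcript and the second for an Ensembl transcript, per the array files. The second had 1661 and 1834 units in wild-type and 2714 and 2615 in deletion-mutant cells. It rose by 0.61 (log2, SE 0.078, adjusted p = 0.00503, with every probe as a feature), while the first rose by 1.71. Within each array the log2 gap between the probes was 1.92 on average in wild-type and 3.03 in deletion-mutant cells. The change of this gap gave p = 0.333 in an exact two-sided permutation test, the smallest p that 2 against 2 arrays allow.

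Receptors of the RGD class moved in both directions. Itga5, the fibronectin receptor chain, had 474 and 499.8 units in wild-type and 986.6 and 984.6 in deletion-mutant cells, a rise of 2.02-fold (limma adjusted p = 0.000772). Itgb3, which pairs with Itgav and Itga2b and binds vitronectin and fibrinogen, had 328.3 and 329.1 units against 697.9 and 746.2. It rose 2.20-fold (adjusted p = 0.000708). A second Itgb3 probe, with 16.8 and 6.4 units against 26.8 and 28, was not well above background on any array and was not tested. Both deletion-mutant arrays were above both wild-type arrays for each of these genes. Itgb5, the other vitronectin receptor partner of Itgav, went the other way, with 2658 and 2686 units against 1375 and 1441. It fell by 0.93 (log2, SE 0.059, adjusted p = 0.000897). Itga8, a chain of mesenchyme and smooth muscle that binds nephronectin, had 977.3 and 1095 units against 552.8 and 578.9 and fell by 0.87 (adjusted p = 0.00197). Under the percentile of the detected probes Itgb5 and Itga8 were at least 2-fold lower and Itga5 and Itgb3 were under 2-fold higher. Itga5 was also under 2-fold with quantile normalization (log2 0.945), with normexp (0.924) and without wild-type replicate 1 (0.98). Itgb3 was under it with normexp (0.992), and Itgb5 was at least 2-fold lower with quantile normalization (-1.1). The directions were kept.

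Itga2b, the platelet fibrinogen receptor chain, had 131.2 and 146.8 units in wild-type cells. On the deletion-mutant arrays it had 34.3 and 70.6 units, of which 1 was well above background. It fell by 1.49 (SE 0.368, limma adjusted p = 0.027), but did not pass without wild-type replicate 1 (adjusted p = 0.1), without wild-type replicate 2 (0.121) or without the background filter (0.108). Itgav had 714.3 and 768.1 units against 771.5 and 807.5 and did not pass (0.092, interval -0.096 to 0.28). The chain that most alpha chains share, Itgb1, had 2997 and 3505 units against 3612 and 3614. Its difference of 0.16 did not pass (adjusted p = 0.223, interval -0.10 to 0.42). A second probe of each gene did not pass either, at -0.10 for Itgav and 0.11 for Itgb1. With median scaling, which moves every log2 fold change up by 0.18, the brighter probes of Itgav and Itgb1 passed as higher (0.27 and 0.34). Itgb6 and Itgb8, partners of Itgav in epithelia and brain, were not above background on any array.

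**Figure D2:**
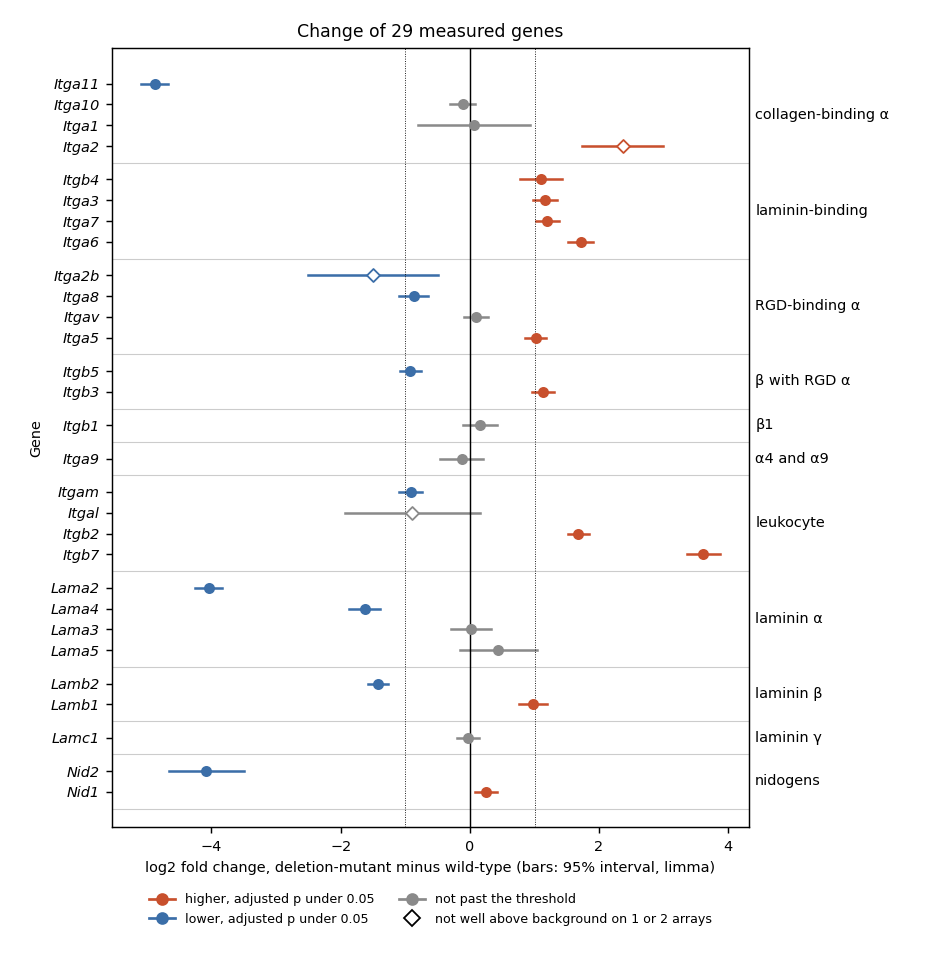
Log2 fold change (deletion-mutant minus wild-type) of 29 measured genes, grouped by role, with the 95% interval from limma as a bar. Red and blue mark genes that passed an adjusted p of 0.05 as higher and lower, grey those that did not, and open diamonds those not well above background on 1 or 2 arrays. The 4 laminin-binding chains lie to the right of the dotted 2-fold line, and Itga11, Lama2 and Nid2 lie below -4.

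Of 7 chains known from leukocytes 4 were measured. Itgb7 and Itgb2 rose (50%, against 34.6% of all features) and Itgam fell (25%, against 24.2%). Itgb7, which guides lymphocytes to the gut, had 130.4 and 152 units in wild-type and 1726 and 1721 in deletion-mutant cells (log2 fold change 3.61, SE 0.094, limma adjusted p = 0.000206). Its partner chains Itga4 and Itgae were not well above background on any array, and no probe of either exceeded 13.6 units. Itgb2, the common beta chain of the leukocyte adhesion receptors, had 78.9 and 75 units against 245.6 and 247.4. It rose 3.20-fold (adjusted p = 0.000324). Both beta chains were apart between the groups, and their signals were well above background on all 4 arrays.

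None of the alpha partners of Itgb2 passed as higher. Itgad and Itgax, both found on myeloid cells, had between 6.1 and 10.6 units, below background on all arrays. Itgal, the chain of the lymphocyte receptor for ICAM proteins, had 86.3 and 63.8 units in wild-type and 28.3 and 56.5 in deletion-mutant cells, of which 1 was well above background. Its difference of -0.89 did not pass (adjusted p = 0.112). It passed with the mean of its probes (-1.09, adjusted p = 0.00585), with an intensity trend and robust variances (-0.89, adjusted p = 0.0213), with normexp (-0.35, adjusted p = 0.0299) and without deletion-mutant replicate 2 (-1.39, adjusted p = 0.00879). A second Itgal probe, with 47.3 and 45.2 units against 12.8 and 11.1 below background, passed as lower when all probes were features (adjusted p = 0.000794), and the remaining one did not (-0.43, adjusted p = 0.35). The genes Itgal, Itgam, Itgad and Itgax lie near each other on chromosome 7, with probes 32.2 to 871.7 kb apart.

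Markers of leukocytes were given beside these values. Of 18 marker genes, 10 were not well above background on any array, among them Ptprc, which all white blood cells carry, and Tyrobp, Laptm5, Lyz2 and Emr1. Their summed signal lay between 1907 and 2035 units on the wild-type and between 2858 and 2947 on the deletion-mutant arrays. Of the 8 measured markers 1 rose and 2 fell, a passing share of 37.5% against 58.8% of all features. Cd14, a monocyte marker, rose 5.59-fold, and Fcer1g, a chain of Fc receptors, was 1.70-fold lower (limma adjusted p = 0.007). Coro1a, an actin-binding protein of leukocytes, was not well above background in deletion-mutant cells and was at least 1.97-fold lower. Its limma adjusted p of 0.00161 belongs to the fitted difference and does not test this bound. Without Cd14 the sum was 1708 to 1810 against 1711 to 1731 units.

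Itgam, a chain of the complement receptor of myeloid cells, was represented by probes that gave different values. They are shown by their first 30 bases, with a run of CA repeats in capitals.
Itgam, brightest probe (chr7:135261755-135261814): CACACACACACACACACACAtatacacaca
Itgam, second probe (chr7:135260275-135260334): aagttcacaatcctgtaccactcattgtgg
Itgam, other probe (chr7:135212140-135212199): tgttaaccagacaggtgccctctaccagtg
The probe with the run of 10 CA units had 11468 and 12312 units in wild-type and 6311 and 6291 in deletion-mutant cells, and fell by 0.92 (log2, SE 0.065, limma adjusted p = 0.00109). The second probe had 37.9 and 47.1 units against 72.8 and 14.5, overlapping between the groups, with a difference of -0.38 that did not pass (adjusted p = 0.721 with every probe as a feature). The other probe had between 16.1 and 34.1 units and was well above background on 1 array only. Across the array, 183 probes held a run of at least 6 CA or TG units, and 93.4% of them were well above background on all 4 arrays, against 40.4% of the other probes. Their median signal was 3690 units against 19.1. Itgam is the only one of the 39 genes with such a probe. With the mean of its measured probes Itgam did not pass (-0.65, adjusted p = 0.248). Without probes that hold a run it did not pass either (-0.38, adjusted p = 0.717), and 20 of the 30 genes passed, 8 of them lower.

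**Figure D3:**
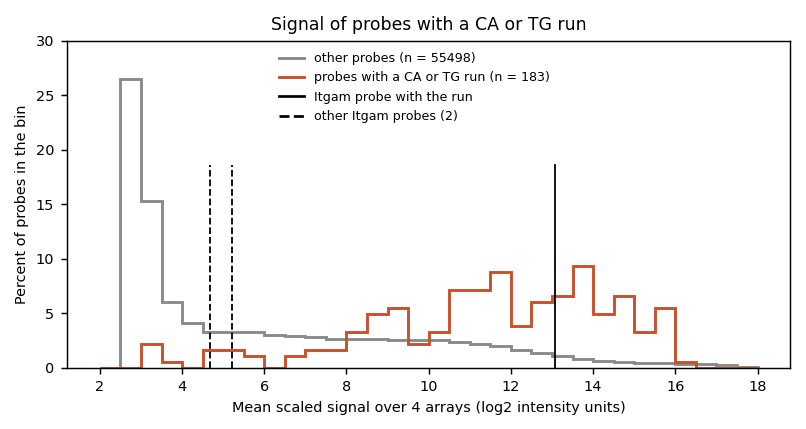
Percent of probes by mean scaled signal over 4 arrays (log2 intensity units), for the 183 probes with a run of CA or TG repeats in red and the 55498 others in grey. The black line marks the Itgam probe with the run and the dashed lines the other Itgam probes, which lie at the dim end.

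Itga9, a chain that binds tenascin and that pairs with Itgb1, had 143.6 and 161.1 units in wild-type and 126.3 and 153 in deletion-mutant cells. These values overlap, and the difference of -0.13 did not pass (adjusted p = 0.413, interval -0.47 to 0.21).

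Among the laminin alpha chains, those of mesenchymal basement membranes fell. Lama2, the laminin chain of muscle and peripheral nerve whose loss causes muscular dystrophy, had 2040 and 2150 units in wild-type and 133.1 and 120.8 in deletion-mutant cells. It was 16.5-fold lower (log2 fold change -4.05, SE 0.077, limma adjusted p = 0.000146). A second Lama2 probe had 1208 and 1329 units against 62.8 and 52.3 and was lower as well (-4.47, SE 0.119, adjusted p = 0.000351 with every probe as a feature). Lama4, the laminin chain of blood vessel walls and fat, had 1982 and 2281 units against 693.4 and 679.7, which is 3.10-fold lower (-1.63, SE 0.089, adjusted p = 0.00067). In both genes the deletion-mutant arrays lay below the wild-type arrays by more than the spread within groups. Lama5, the widespread chain of adult basement membranes, was dim, at 58.4 and 41.1 units against 74.8 and 59, and did not pass (0.44, adjusted p = 0.155). It passed with the replicate number as a block (adjusted p = 0.0246). Lama3, an epithelial chain, had 67.8 and 70.1 units against 76.8 and 63.2 and did not pass (0.015, interval -0.29 to 0.32). Lama1, the chain of the early embryo, was not above background.

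The beta chains changed in opposite directions. Lamb1, the common beta chain of embryonic and mesenchymal laminins, rose 1.97-fold, from 14197 and 13793 units in wild-type to 29245 and 26046 in deletion-mutant cells (limma adjusted p = 0.00148). Lamb2, its counterpart at the nerve-muscle junction and in the kidney filter, was 2.68-fold lower, with 2436 and 2450 units against 905.5 and 917.6 (-1.42, SE 0.054, adjusted p = 0.000369). For both genes the groups were well apart. Lamb3, a chain of the laminin of skin, was not above background.

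Lamc1, the gamma chain of most laminins, had 9646 and 10176 units against 9581 and 9924, with a difference of -0.023 (95% interval -0.19 to 0.15) that did not pass. It passed as lower with quantile normalization (-0.27) and with the percentile of the detected probes (-0.22). Lamc3 was not above background.

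The nidogens parted as well. Nid2 had 1861 and 1876 units in wild-type and 89.9 and 135.9 in deletion-mutant cells and was 16.9-fold lower (-4.08, SE 0.213, limma adjusted p = 0.000612). Nid1 had 10297 and 10930 units against 12381 and 12753, a rise of 0.24 (adjusted p = 0.0314). This call was lost without any 1 of the arrays (adjusted p between 0.0675 and 0.13), without the background filter (0.17), with quantile normalization (0.012, adjusted p = 0.879) and with the percentile of the detected probes (0.05, adjusted p = 0.501). The other Nid1 probes had log2 fold changes of 0.49 (adjusted p = 0.00514) and 0.31 (adjusted p = 0.0547).

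**Figure D4:**
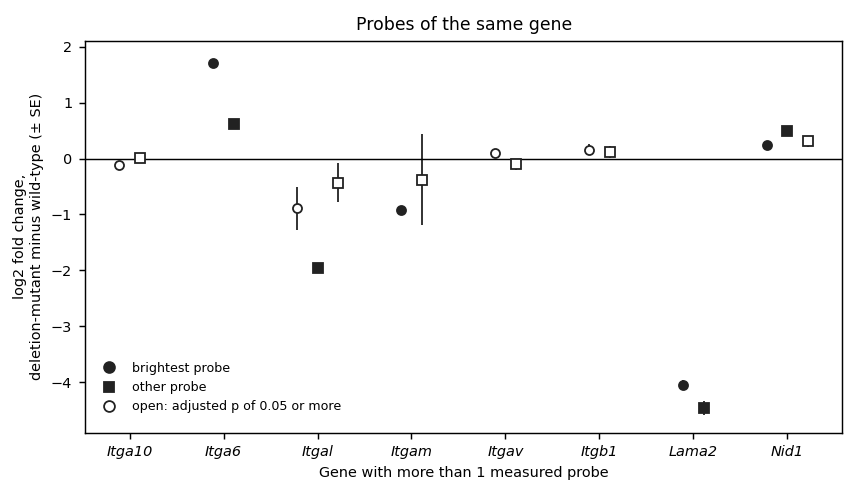
Log2 fold change (deletion-mutant minus wild-type, with the SE as a bar) of every measured probe of the 8 genes with more than 1 measured probe. Circles are the brightest probe, squares the others, and open symbols did not pass an adjusted p of 0.05 with every probe as a feature. Both Lama2 probes lie below -4, and the probes of Itga6 and Itgal lie apart.

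The 9 genes without a measured probe were Itga4, Itgad, Itgae, Itgax, Itgb6, Itgb8, Lama1, Lamb3 and Lamc3. Their 11 probes had between 5.5 and 18.2 units, below the lowest signal that counted as well above background (26.1 to 35.3 units by array). They are not shown to be absent, only not detectable at this signal.

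Genes that act beside these chains were taken from lists by role and are described by counts and medians. Of 18 measured integrin ligands 11 fell (61.1%, against 24.2% of all features) and 5 rose (27.8%, against 34.6%). Their median log2 fold change was -0.92, against 0.066 over all features. Those with the largest changes were the semaphorin Sema7a (54.7-fold higher), thrombospondin Thbs1 (32.2-fold lower), periostin Postn (28.8-fold lower) and the growth factor Tgfb1 (3.58-fold higher), whose latent form Itgav dimers bind. Fibronectin itself, Fn1, the ligand of Itga5, fell by 0.70 (SE 0.059, limma adjusted p = 0.00153). Vcam1, a ligand of the Itga4 dimers, was 3.37-fold lower, and Madcam1, the gut ligand of Itgb7 dimers, was not above background. Nephronectin, Npnt, the ligand of Itga8, was not well above background in wild-type cells, and its fitted change was 2.12-fold higher (limma adjusted p = 0.00612). Its wild-type signals of 26.3 and 34.9 units lay above the lowest signals well above background there, 26.1 and 31.6. No signal was therefore replaced, and the bound is the same as this fitted fold.

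In the cytoplasmic adhesion complex, which ties integrin tails to actin, 11 of 25 measured genes rose (44%, against 34.6% of all features). Another 3 fell (12%, against 24.2%), which makes a passing share of 56% against 58.8%. The median log2 fold change of the list was 0.23, against 0.066 over all features. Parvb, a parvin that binds integrin-linked kinase, rose 4.72-fold, and the scaffold Pxn (paxillin) rose 2.87-fold. Lims2, an adaptor of the same kinase, was at least 1.59-fold lower, and Itgb1bp1, which binds the Itgb1 tail, rose 1.79-fold. Of other proteins of the list, Tln1 (0.13), Vcl (0.008), Fermt2 (0.019) and Ilk (-0.029) did not pass. Actn4 (0.67), Actn1 (0.61), Tln2 (0.51) and Ptk2 (0.40) passed as higher (limma adjusted p between 0.00191 and 0.0186).

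The list of basement membrane and laminin receptor partners also holds proteins of the cell membrane and the cytoplasm. Of its 19 measured genes 10 fell (52.6%, against 24.2% of all features) and 4 rose (21.1%, against 34.6%). Their median was -0.25, against 0.066 over all features. Smoc1 was at least 5.22-fold and its relative Smoc2 9.60-fold lower, and the type IV collagen chains Col4a6 and Col4a5 were 3.47-fold and 3.34-fold lower. The 4 that rose were Sgcd (0.77), the tetraspanin Cd151, a partner of laminin-binding integrins (0.56), Col4a1 (0.42) and Col4a2 (0.34). Perlecan, Hspg2, which binds laminin and nidogen, did not pass (0.14, adjusted p = 0.198). Dystroglycan, Dag1, the laminin receptor outside the integrin family, fell by 0.35 (adjusted p = 0.0144).

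**Figure D5:**
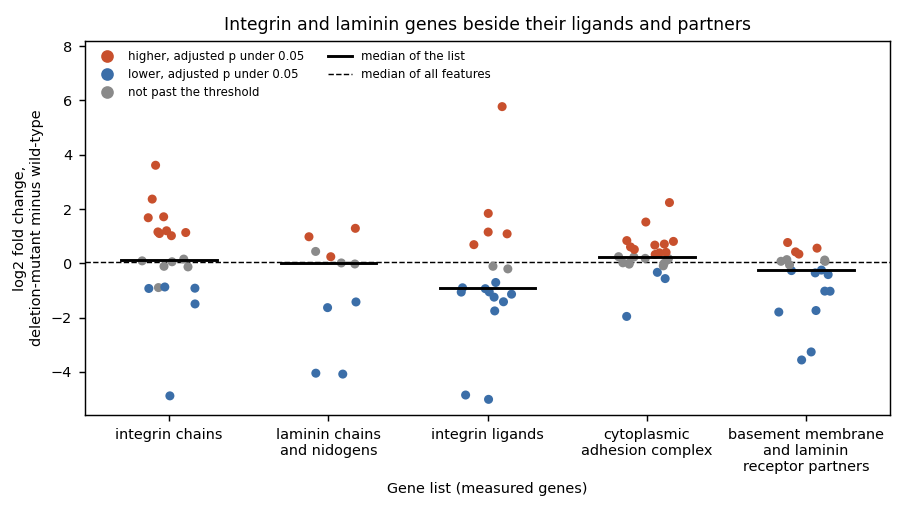
Log2 fold change (deletion-mutant minus wild-type) of the measured genes of each list, 1 point per gene, with the list's median as a thick line and the median of all features, 0.066, as a dashed line. The integrin ligands have the lowest median, -0.92, and Sema7a the highest point.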

How the data were processed

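Arrays were 1-colour Agilent arrays, read with Feature Extraction 10.10.1.1 per the file headers. The deposited files give background-subtracted, detrended intensity per spot, and flags for signal above background and for uneven spots, per the file headers. The authors also deposited a table of log2 values, which equalled the log2 signal plus 1 constant per array. Control spots and marked spots were left out, the log2 values of repeated spots were averaged per probe, and each array's 75th percentile over probes was subtracted. A probe was kept where both arrays of at least 1 group were well above background (25162 probes), and a gene was represented by its brightest kept probe (18093 features). Groups were compared with limma 3.58.1 in R 4.3.3, without a block. For a gene not above background in 1 group the fold is a bound: on each dim array its signal was replaced by the lowest signal well above background where that was higher, and the group means of log2 values were then compared. The procedure was tested on simulated data. Figures used Python 3.11.15 and matplotlib 3.10.9. Members and lists were chosen with earlier results of these data known. All members were named but 1, which counts in the totals and is not reported here, and of other lists up to 4 passing genes with the largest change; Fn1, Vcam1, Madcam1, Npnt, Cd151, Hspg2, Dag1, the core adhesion proteins and those named where counts were 5 or fewer were chosen after their values were seen. The number of arrays limits the precision.

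The alternatives were median, quantile and detected-probe scaling, normexp with an offset of 50, the authors' values, other filters, an intensity trend with robust variances, other rules for probes, a block for the replicate number, and single arrays left out in turn. Leaving out probes with repeats was added after the data were seen. Whether replicate numbers pair the arrays was checked by the correlation of their deviations from the group means, which was 0.047.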

Additional observations from a re-analysis of the deposited data

How the results depend on the processing

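No measured gene that passed the threshold changed its direction under an alternative that tested it. Itga2, Itga2b and Itgal were not tested where all arrays had to be above background, which left 27 of the 30 genes. Over all alternatives the counts of genes past it lay between 19 and 23, with 11 to 14 higher and 8 to 11 lower. The count of fitted changes of at least 2-fold was 16, and 9 with normexp, where an offset of 50 is added to every signal. All features past the threshold numbered 10631, and 6466 without a background filter, which tests 34816 features in place of 18093. Leaving out 1 array gave 7815 to 9561 features, 19 to 21 of the 30 genes (11 higher each time and 8 to 10 lower) and 14 to 18 at least 2-fold changes, with the lone array of a group assumed to vary like the other group. The replicate number as a block gave 22 genes past the threshold in place of 21, and all features 9990. The arrays share only a number, so this block is given as an alternative. The correlation of deviations was 0.047, and with 2 pairs it decides nothing. Under median scaling the median of all features moved by 0.18 (log2), under the percentile of the detected probes by -0.19. Signal over background limits Itga2, Itga2b, Itgal, Itga1 and Lama5, which lay near the lowest detectable signal.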
